A study of Mus musculus with 9 samples.

Results

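The receptors that share the common gamma chain are encoded here by 8 genes, Il2ra, Il2rb, Il2rg, Il4ra, Il7r, Il9r, Il15ra and Il21r, which were taken by gene symbol from the 24060 genes of the deposited expression table. All 8 had a row, and 7 of them (all but Il9r) reached the level at which a gene was tested, a maximum above 1 TPM (a transcript level corrected for length and scaled to the same total in each library) in the 9 libraries. The libraries came from splenocytes of the transnuclear mouse lines R7-I, R7-II and R7-III, 3 libraries per line. Each line was derived by nuclear transfer from 1 CD8 T cell specific for ROP7, a Toxoplasma gondii peptide presented by H-2Ld, so every line carries 1 endogenous T cell receptor and stands for 1 clone, on a Rag2+/+ BALB/c background. All 9 cultures were treated alike: they were kept overnight in RPMI with 10 ng/ml recombinant mouse IL-2 and 10 µM ROP7 peptide, after which live cells positive for CD3, CD8 and the H-2Ld-Rop7 tetramer were sorted for polyA RNA sequencing. The labels rank affinity for the peptide as R7-I > R7-III > R7-II and self-reactivity as R7-III > R7-I > R7-II, and the comparisons ask how the clones differ in expression after activation. Unstimulated cells were not analysed here, so the values describe differences between activated clones and not the change on activation. The labels call the 3 libraries of a clone biological replicates without saying that they came from separate mice, and p-values measure only the spread between these samples.

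The common gamma chain, the product of Il2rg, is the signalling subunit shared by the receptors for IL-2, IL-4, IL-7, IL-9, IL-15 and IL-21, and it carries the kinase JAK3. Each cytokine adds chains of its own. Il2rb encodes the beta chain of the IL-2 and IL-15 receptors, which binds JAK1, and Il2ra encodes CD25, the alpha chain that raises the affinity for IL-2 and is itself induced by T cell receptor and IL-2 signals. Il15ra encodes the chain that binds and presents IL-15. Il7r encodes CD127, a chain that naive and memory T cells express and activated T cells lower, while Il4ra, Il9r and Il21r encode the chains for IL-4 (and IL-13), IL-9 and IL-21. Receptor engagement activates STAT5, STAT6 or STAT3, which act on genes for survival, growth and feedback inhibition.

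The sorted cells carried the markers of their label. The summed TPM of 6 CD8 T cell genes (Cd8a, Cd8b1, Cd3d, Cd3e, Cd3g and Cd2) was 1419 to 1459 in R7-I, 2135 to 2177 in R7-II and 1612 to 1642 in R7-III, and of a list of 4 NK cell genes Klrb1c and Ncr1 were at or below 0.09 TPM and Klra4 and Klra8 at 0 in all libraries. By summed TPM, the lists of B cell, MHC class II and myeloid genes were far below the CD8 T cell list in every library and highest in R7-II. Of 9 B cell genes 8 were tested, and all 8 were higher in R7-II than in either other clone (6 against R7-I after quantile normalization), with a summed TPM of 8.62 to 15.9 in R7-I, 35.5 to 74.0 in R7-II and 5.14 to 8.06 in R7-III (Cd79b and Cd79a led the list). All 7 MHC class II genes, led by Cd74 and H2-Aa, were likewise higher in R7-II in each comparison. Against R7-I and R7-III, 6 and 7 stayed higher after median-of-ratios scaling, and 5 and 6 after quantile normalization. The MHC class II genes summed to 112 to 183 TPM in R7-II against 24.3 to 50.3 in the other clones. Of 9 myeloid genes 8 were tested and 7 were higher in R7-II in each comparison (6 and 5 after median-of-ratios scaling, 2 and 5 after quantile normalization, against R7-I and R7-III), although most of their sum was Cst3 (59.8 to 82.2 TPM over all libraries). Lyz2, the second of that list and a lysozyme gene of macrophages and neutrophils, was at 0.25 to 0.65 TPM in R7-I, 13.8 to 56.7 in R7-II and 1.57 to 2.43 in R7-III, and Cd14 was at 0 in the R7-I libraries. The 5 CD4 and regulatory T cell genes summed to 7.04 to 13.1 TPM, with Cd4 and Foxp3 at or below 1.07 TPM in every library and Ikzf2 and Cd40lg the highest. In sorted bulk samples like these, fewer cells of a type and less RNA per cell cannot be told apart.

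Positions below are those of the RefSeq annotation of GRCm38, the build that mm10 names. Il2ra and Il15ra are neighbours on chromosome 2, with starts 62380 bases apart, and Il4ra and Il21r on chromosome 7, with starts 50981 bases apart. Il2rb and Il7r are on chromosome 15, Il9r on chromosome 11 and Il2rg on chromosome X. The RefSeq promoter table held 7 of the 8 members (not Il2rb), with 8 windows in all, of which the 250 bases before the transcript start were read. They are shown for the 4 genes with the largest differences between clones reported below, 5′ to 3′ on the strand of the gene, from the reference genome and not from the BALB/c lines. Capitals mark matches to 4 motifs searched on both strands. These were TTCNNNGAA, the element that STAT factors bind, ACTTCC, a form of the ETS site, TGTTTAC, a FOXO element, and the kappa-B consensus. Other forms of the ETS site were not searched. The windows are chr2:11642542-11642791 (plus strand) for Il2ra, chr2:11705043-11705292 (plus strand) for Il15ra, chr15:9529877-9530126 (minus strand) for Il7r and chrX:101268256-101268505 (minus strand) for Il2rg. Those of Il15ra and Il7r lie before a transcript start inside the annotated span of the gene.
Il2ra: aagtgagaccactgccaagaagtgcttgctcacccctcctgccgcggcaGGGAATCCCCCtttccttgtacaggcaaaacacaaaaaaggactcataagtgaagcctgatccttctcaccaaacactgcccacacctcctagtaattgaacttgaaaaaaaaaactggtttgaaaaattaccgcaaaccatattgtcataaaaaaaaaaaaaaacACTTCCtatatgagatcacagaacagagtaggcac
Il15ra: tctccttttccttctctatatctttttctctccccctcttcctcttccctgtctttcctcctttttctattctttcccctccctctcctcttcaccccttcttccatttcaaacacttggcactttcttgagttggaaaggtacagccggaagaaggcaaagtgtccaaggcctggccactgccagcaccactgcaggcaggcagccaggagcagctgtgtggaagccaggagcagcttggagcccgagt
Il7r: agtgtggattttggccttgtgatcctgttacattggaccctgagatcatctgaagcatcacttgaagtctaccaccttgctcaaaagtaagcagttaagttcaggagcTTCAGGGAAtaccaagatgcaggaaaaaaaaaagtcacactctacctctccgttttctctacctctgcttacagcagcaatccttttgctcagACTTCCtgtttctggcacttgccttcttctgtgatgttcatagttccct
Il2rg: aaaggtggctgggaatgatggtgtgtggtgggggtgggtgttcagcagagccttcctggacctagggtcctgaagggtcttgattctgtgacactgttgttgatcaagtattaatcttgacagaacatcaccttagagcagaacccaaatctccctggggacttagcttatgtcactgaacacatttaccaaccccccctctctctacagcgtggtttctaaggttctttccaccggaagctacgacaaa

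The Il2ra window held overlapping kappa-B matches that cover 201 to 191 bases before the start, a kind of match present in 7.25% of the 32851 promoters of the table, and an ETS match 35 to 30 bases before it. The Il7r window held 1 STAT match (142 to 134 bases before the start), as did 7.02% of promoters, and 1 ETS match (49 to 44 bases before it), as did 19.7%. Among the windows not printed, that of Il21r held the FOXO element 38 to 32 bases before its start, found in 3.17% of promoters. The windows of Il2rg, Il4ra, Il9r and Il15ra (both of its 2) held none of the 4 as spelled above, and other forms of these sites were not searched. These matches describe the letters of the windows and were not tested as sites in these cells.

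The order of the levels on the TPM scale was nearly the same in the 3 clones. Il2rg was the most abundant (means of 601, 781 and 646 TPM in R7-I, R7-II and R7-III), followed by Il2ra, Il2rb and Il21r, with no overlap between neighbours in this order in any clone. Il15ra came before Il4ra in R7-I and in R7-III, where their libraries overlapped in R7-III, while in R7-II Il4ra came before Il15ra with no overlap. Il7r and Il9r were last in each clone. The summed TPM of the 8 genes differed little, at 1394 ± 16.6 (SD, n = 3) in R7-I, 1447 ± 39.4 in R7-II and 1445 ± 18.8 in R7-III, but its makeup did: Il2rg made up 53.9% ± 0.840 of the sum in R7-II against 43.1% ± 0.319 in R7-I and 44.7% ± 1.15 in R7-III, and Il2ra 17.9% ± 0.634 in R7-II against 27.0% ± 1.22 and 24.7% ± 0.688. Il2rb stayed near the same share (12.4%, 12.5% and 13.2%), and so did Il21r (10.5%, 9.88% and 10.3%). The plot of TPM by library shows these levels gene by gene.

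**Figure D1:**
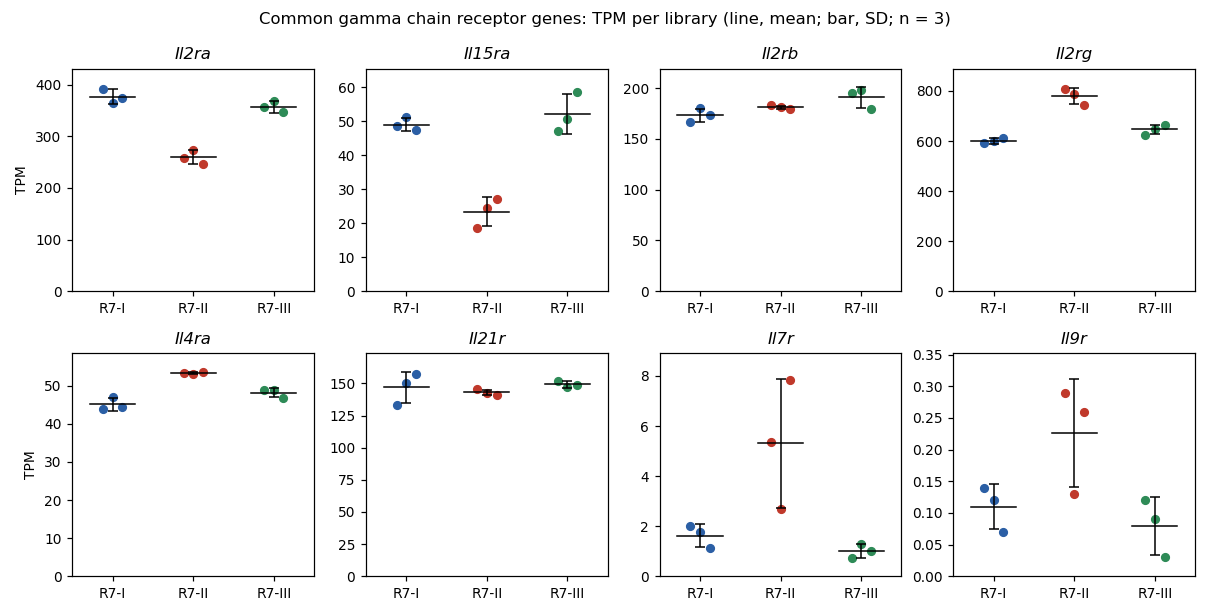
TPM (vertical axis, starting at 0 and scaled per gene) of the 8 common gamma chain receptor genes in each of the 9 libraries, grouped by clone; points are libraries, lines means and bars SD (n = 3). In R7-II, Il2ra and Il15ra lie below both other clones, Il2rg, Il4ra and Il7r above them, and Il2rb and Il21r near them.

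Each gene was compared between clones by limma on log2(TPM + 1), and a difference was called at an adjusted p under 0.01. Between R7-II and R7-I, 5 of the 7 genes tested were called, Il2rg, Il4ra and Il7r higher and Il2ra and Il15ra lower in R7-II. Of all 11330 genes tested 56.1% were called in that comparison (40.6% higher and 15.5% lower in R7-II). Between R7-II and R7-III the same 5 genes were called in the same directions, against 53.6% of all genes (35.6% higher and 18% lower). Between R7-III and R7-I limma called 0 of 7, against 8.41% of all genes, while Il2rb, Il2rg and Il4ra (3 of 7) had an unadjusted p under 0.05, as did 32.3% of all genes. A share of 5 in 7 among members is thus set against more than 50% of all genes, and it does not mark the family as a whole. The 2 comparisons of R7-II share the R7-II libraries, so they are not independent of each other. The median log2 fold change of the 7 genes was 0.06, -0.06 and 0.08 in R7-II against R7-I, R7-II against R7-III and R7-III against R7-I, where that of all genes was 0.17, 0.12 and 0.04.

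The sign of small differences depended on how libraries were scaled, since TPM values put most genes slightly higher in R7-II. Division of each library by a median-of-ratios factor moved the median of all genes to 0.0084 and 0.0042 in the comparisons of R7-II with R7-I and with R7-III. After it, Il2rg and Il7r were still called higher and Il2ra and Il15ra lower in both comparisons, Il4ra was called in neither, and Il21r was called lower in both and Il2rb lower against R7-III. The calls were then 2 higher and 3 lower against R7-I (26% and 28.5% of all genes, 54.5% together) and 2 higher and 4 lower against R7-III (25.6% and 27.8%, 53.4% together), with 0 of 7 between R7-III and R7-I (8.39% of all genes). Against R7-I, Il2rb changed sign. Quantile normalization left Il2rg higher and Il2ra and Il15ra lower against R7-I (3 of 7, where 49.2% of all genes were called).

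**Figure D2:**
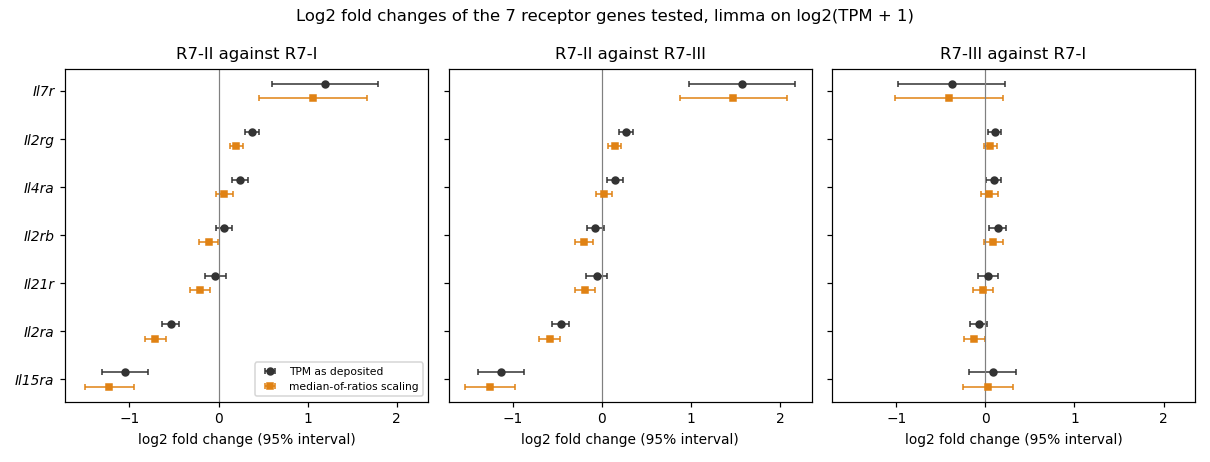
Log2 fold change (horizontal axis, from limma on log2(TPM + 1)) with its 95% interval for the 7 genes tested in the 3 comparisons, from TPM as deposited (circles) and after median-of-ratios scaling (squares). Il15ra and Il2ra lie left of 0 and Il7r and Il2rg right of 0 in both comparisons of R7-II under either scaling, whereas the median-of-ratios scaling brings Il4ra close to 0, takes Il2rb across 0 against R7-I and takes Il21r further below 0 in both.

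Il2ra, the gene of CD25 (chr2:11642792-11693194, plus strand), was lower in R7-II. It measured 391.90, 364.07 and 374.50 TPM in R7-I, 258.21, 273.95 and 246.43 in R7-II and 356.73, 369.27 and 346.14 in R7-III (means of 377 ± 14.1, 260 ± 13.8 and 357 ± 11.6). Each R7-II library was below each library of the other clones, which overlapped with each other. The log2 fold change was -0.54 (SE 0.0428, adjusted p = 1.95e-06) against R7-I and -0.46 (SE 0.0428, adjusted p = 5.94e-06) against R7-III, a mean TPM 1.45-fold and 1.38-fold lower. R7-III and R7-I differed by -0.08, with a 95% interval of -0.17 to 0.02 (adjusted p = 0.253). Over the alternatives the difference from R7-I ranged from -0.71 to -0.49 and that from R7-III from -0.59 to -0.39, and all passed.

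Il15ra (chr2:11705172-11733985, plus strand) showed the largest fold among the members with a mean above 10 TPM. It measured 48.66, 51.29 and 47.34 TPM in R7-I, 18.68, 24.40 and 27.05 in R7-II and 47.16, 50.61 and 58.71 in R7-III (means of 49.1 ± 2.01, 23.4 ± 4.28 and 52.2 ± 5.93). The 3 R7-II libraries were apart from and below the other 6, and those of R7-I and R7-III overlapped. The log2 fold change was -1.05 (SE 0.117, adjusted p = 1.91e-05) against R7-I and -1.13 (SE 0.117, adjusted p = 1.20e-05) against R7-III, or means 2.10-fold and 2.23-fold lower. Between R7-III and R7-I it was 0.08 (95% interval -0.18 to 0.34, adjusted p = 0.688).

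Il2rg, the gene of the shared chain (chrX:101264385-101268255, minus strand), was higher in R7-II. Its TPM values were 591.70, 598.16 and 613.91 in R7-I, 807.02, 789.59 and 745.41 in R7-II and 625.49, 647.71 and 665.20 in R7-III (means of 601 ± 11.4, 781 ± 31.8 and 646 ± 19.9). No clone overlapped with another, and R7-II was highest. The log2 fold change was 0.38 (SE 0.0343, adjusted p = 4.95e-06) against R7-I and 0.27 (SE 0.0343, adjusted p = 5.11e-05) against R7-III, and 0.20 (adjusted p = 4.10e-04) and 0.15 (adjusted p = 0.00307) after median-of-ratios scaling. Between R7-III and R7-I it was 0.10 (95% interval 0.03 to 0.18), which missed the threshold (adjusted p = 0.0605) although the libraries did not overlap. Of the 7 members tested, 5 did not overlap between R7-II and R7-I (71.2% of all genes tested), 6 between R7-II and R7-III (70.6%) and 1, Il2rg, between R7-III and R7-I (41.9%).

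Il2rb, the beta chain gene (chr15:78479256-78511621, minus strand), was called in none of the comparisons. It measured 167.09, 180.04 and 173.16 TPM in R7-I, 183.02, 181.05 and 179.95 in R7-II and 195.17, 198.69 and 179.27 in R7-III (means of 173 ± 6.48, 181 ± 1.56 and 191 ± 10.3). R7-II overlapped with both other clones. Its log2 fold change was 0.06 (95% interval -0.03 to 0.16) in R7-II against R7-I, -0.07 (-0.17 to 0.02) in R7-II against R7-III and 0.14 (0.05 to 0.23, adjusted p = 0.0418) in R7-III against R7-I. After median-of-ratios scaling the first was -0.11 (adjusted p = 0.0584) and the second -0.20 (adjusted p = 0.00368), which passed.

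Il7r, the gene of CD127 (chr15:9506159-9529941, minus strand), was low everywhere and highest in R7-II. It was at 1.99, 1.75 and 1.12 TPM in R7-I, at 5.37, 2.70 and 7.85 in R7-II and at 0.72, 1.29 and 1.02 in R7-III (means of 1.62 ± 0.449, 5.31 ± 2.58 and 1.01 ± 0.285). The R7-II libraries were spread widely but did not overlap with the others. The log2 fold change was 1.19 (SE 0.270, adjusted p = 0.00252) against R7-I and 1.57 (SE 0.270, adjusted p = 4.44e-04) against R7-III, while the means of TPM differed 3.28-fold and 5.25-fold. A pseudocount of 1 shrinks folds at this level, and with other pseudocounts and settings the first value lay between 0.61 and 1.56 and the second between 0.75 and 2.19. The call against R7-I was lost after quantile normalization (adjusted p = 0.0189), without R7-I replicate 3 (0.0136), without R7-II replicate 1 (0.0112) and with median-of-ratios scaling and the replicate number as a block together (0.0123). R7-III and R7-I differed by -0.38 (95% interval -0.97 to 0.22, adjusted p = 0.374).

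Replicate 2 of R7-II had the lowest Il7r of its clone. It also had the lowest sum of the B cell list (74.0, 35.5 and 56.4 TPM in replicates 1 to 3), the MHC class II list (183, 112 and 181) and the myeloid list (113, 99.9 and 158). Their part in the Il7r result was not tested.

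Il4ra (chr7:125552271-125579474, plus strand) was slightly higher in R7-II, and the call rested on the scaling. Its TPM values were 43.89, 47.17 and 44.35 in R7-I, 53.46, 53.17 and 53.62 in R7-II and 48.80, 48.97 and 46.84 in R7-III (means of 45.1 ± 1.78, 53.4 ± 0.228 and 48.2 ± 1.18). The R7-II libraries lay close together above the other 6, and R7-III overlapped with R7-I. The log2 fold change was 0.24 (SE 0.0391, adjusted p = 2.98e-04) against R7-I and 0.15 (SE 0.0391, adjusted p = 0.00714) against R7-III. After median-of-ratios scaling it was 0.07 (adjusted p = 0.177) and 0.02 (adjusted p = 0.665), and against R7-III the call was also lost without any 1 library of R7-II or R7-III (adjusted p between 0.0123 and 0.0297). GENCODE annotates a gene on the opposite strand, Gm44876, over Il4ra, and because the libraries did not keep strand, reads from both cannot be told apart. It also annotates Gm37881 over Il2ra and Gm20489 over Il2rg, each on the same strand as the member, so the share of reads that went to either cannot be told from these values.

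Il21r (chr7:125603252-125634397, plus strand), the gene next to Il4ra, did not pass in the 3 comparisons. It measured 133.22, 150.03 and 157.25 TPM in R7-I, 145.27, 142.78 and 140.81 in R7-II and 151.93, 147.14 and 148.40 in R7-III (means of 147 ± 12.3, 143 ± 2.24 and 149 ± 2.48). R7-I spanned all other libraries, and R7-II lay just below R7-III. Its log2 fold change was -0.04 (95% interval -0.15 to 0.08) in R7-II against R7-I, -0.06 (-0.17 to 0.05) in R7-II against R7-III and 0.03 (-0.09 to 0.14) in R7-III against R7-I. After median-of-ratios scaling the first 2 became -0.21 (adjusted p = 0.00403) and -0.19 (adjusted p = 0.00787) and passed.

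Il9r (chr11:32187544-32205283, minus strand) was barely detected in a table whose values rise in steps of 0.01 TPM. It stood at 0.14, 0.12 and 0.07 TPM in R7-I, at 0.29, 0.13 and 0.26 in R7-II and at 0.12, 0.09 and 0.03 in R7-III. R7-II overlapped with R7-I and lay above R7-III. With no filter on low values limma called it in none of the comparisons (adjusted p = 0.0616, 0.0237 and 0.755 for R7-II against R7-I, R7-II against R7-III and R7-III against R7-I).

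A single scaling factor per library leaves the ratio of 2 chains in that library as it was, apart from the 0.1 TPM added here to both. For 4 such ratios the clones were compared by an exact permutation test over the 1680 assignments of libraries to clones. The ratio of Il2ra to Il2rg, that of the IL-2 specific chain to the shared chain, was 0.662, 0.609 and 0.610 in R7-I, 0.320, 0.347 and 0.331 in R7-II and 0.570, 0.570 and 0.520 in R7-III. R7-II was lowest, R7-I highest, and no clone overlapped with another (exact p = 0.00357, the smallest these assignments allow, and 0.00476 adjusted over the 4 ratios). The ratio of Il2ra to Il2rb had geometric means of 2.17 in R7-I, 1.43 in R7-II and 1.87 in R7-III, again without overlap (exact p = 0.00357, adjusted 0.00476). That of Il2rb to Il2rg was 0.288, 0.233 and 0.296, with R7-II below the other 6 libraries and R7-I and R7-III overlapping (exact p = 0.0286, adjusted 0.0286). Il7r to Il2rb was 0.00967, 0.0273 and 0.00568 in R7-I, R7-II and R7-III (exact p = 0.00357, adjusted 0.00476), with the R7-II libraries between 0.0155 and 0.0442. With 1 TPM added in place of 0.1, its difference between R7-II and the other clones went from 1.88 to 1.39 on the log2 scale (exact p = 0.00357). Ratios of other gene pairs were not tested, so how often they separate the clones is not known. Single genes often did: in R7-II 71.2% lay apart from R7-I and 70.6% apart from R7-III, and 41.9% separated the other 2 clones. Il2ra was called lower and Il2rg higher in R7-II from the same libraries, so their ratio is not independent of those calls.

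**Figure D3:**
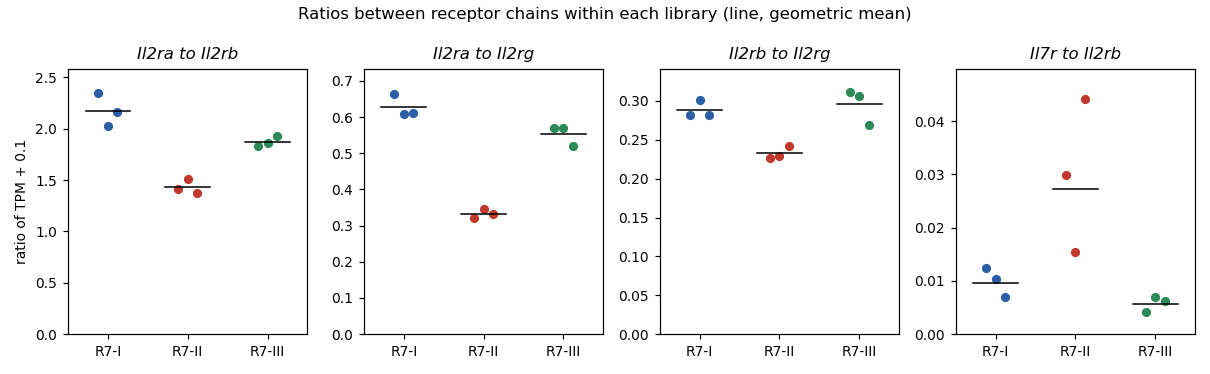
Ratio of TPM + 0.1 between 2 receptor chains within each library (vertical axis, starting at 0), grouped by clone; points are libraries and lines geometric means. Il2ra per Il2rb and per Il2rg is lowest in the 3 R7-II libraries and highest in R7-I, whereas Il7r per Il2rb is highest in R7-II.

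The other genes of the pathway were read from lists of ligands, partner chains, signalling proteins, responsive genes and regulators. Of 8 ligand genes, Il2 alone was tested, and Il7 and Tslp were listed at 0 in all libraries. Il2, the gene of the cytokine bound by CD25, measured 144.79, 147.45 and 166.70 TPM in R7-I, 35.84, 58.11 and 52.33 in R7-II and 185.71, 176.20 and 226.37 in R7-III. R7-II lay far below the other clones, by -1.66 (SE 0.152, adjusted p = 5.19e-06) against R7-I and -2.01 (SE 0.152, adjusted p = 1.37e-06) against R7-III on the log2 scale. Of 3 partner chains, Crlf2, the chain that pairs with Il7r for TSLP, alone was tested. It had means of 31.4 ± 3.79, 30.0 ± 0.970 and 40.9 ± 1.68 TPM in R7-I, R7-II and R7-III and was lower in R7-II than in R7-III (-0.43, adjusted p = 3.87e-04). It was also higher in R7-III than in R7-I (0.37, adjusted p = 0.00603), a call lost under 12 of the 21 alternatives, median-of-ratios scaling (adjusted p = 0.0113) among them.

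Of 12 kinases, STATs and adaptors 11 were tested. Against R7-I, 8 were higher and 1 lower in R7-II (40.6% and 15.5% of all genes), and against R7-III 5 higher and 2 lower (35.6% and 18%). In R7-III 2 were higher than in R7-I (8.41% of all genes in either direction), and the medians of the list were 0.38, 0.20 and 0.0044. After median-of-ratios scaling the numbers were 5 and 3 (26% and 28.5% of all genes), 4 and 3 (25.6% and 27.8%), and 1 (8.39% in either direction). Jak1, the kinase bound by the chains of Il2rb, Il4ra and Il7r, was at 122 ± 1.64 TPM in R7-I, 190 ± 11.8 in R7-II and 120 ± 2.85 in R7-III, higher in R7-II by 0.62 and 0.66 on the log2 scale. Jak3, the kinase of the common chain, is named here after its values were seen: it had means of 54.3, 63.2 and 63.2 TPM in R7-I, R7-II and R7-III, differed from R7-I in both (0.22, adjusted p = 6.24e-04, and 0.21, adjusted p = 0.00423) and did not pass after median-of-ratios scaling. Stat5a was lower in R7-II (220 ± 9.31, 167 ± 14.1 and 197 ± 7.71 TPM, by -0.40 and -0.25 relative to R7-I and R7-III), and the second of these calls was lost without R7-II replicate 1 or 2 or R7-III replicate 1 or 2 (adjusted p up to 0.0155), after quantile normalization (0.0133) and with no trend (0.0112). Stat6, which IL-4 activates, was called 0.21 and 0.20 higher in R7-II but not after median-of-ratios scaling (0.03 and 0.08). Irs2, an adaptor of the IL-4 receptor, was at 4.53 ± 0.546, 9.65 ± 1.58 and 3.79 ± 0.335 TPM and higher in R7-II by 0.94 and 1.15.

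All 16 STAT5-responsive and feedback genes were tested, and they did not move one way. In R7-II 5 were higher and 6 lower than in R7-I (40.6% and 15.5% of all genes), with a median of -0.06. Against R7-III 5 were higher and 6 lower (35.6% and 18%), with a median of -0.10. In R7-III 2 were higher than in R7-I (8.41% of all genes in either direction). After median-of-ratios scaling the numbers were 4 and 9 (26% and 28.5% of all genes), 3 and 6 (25.6% and 27.8%), and 1 higher and 1 lower (8.39% together). Socs3, a feedback inhibitor of cytokine receptors, was at 4.53, 3.71 and 3.68 TPM in R7-I, 28.84, 19.16 and 26.02 in R7-II and 3.97, 3.47 and 2.23 in R7-III, higher in R7-II by 2.35 (adjusted p = 1.18e-06) and 2.61 (adjusted p = 5.64e-07). Socs2, of the same family, was higher by 1.20 and 0.58, and the anti-apoptotic Bcl2, with means of 11.6 ± 0.287, 37.2 ± 4.29 and 14.7 ± 0.832 TPM, by 1.59 and 1.28. Of the genes related to Bcl2 on the list, named after their values were seen, Mcl1 was also higher in R7-II, by 0.49 and 0.50. Bcl2l1 went the other way, with means of 307, 194 and 286 TPM (-0.66 and -0.55). Gzmb, the gene of granzyme B, was lowest in R7-II at 73.8 ± 15.2 TPM, against 698 ± 175 in R7-I and 366 ± 91.0 in R7-III (-3.21 and -2.28, adjusted p = 9.23e-07 and 1.03e-05). Among the 3 most abundant of the list, Myc (648, 545 and 598 TPM) and Ccnd2, a cyclin (493, 391 and 525 TPM), were lower in R7-II, by -0.25 and -0.33 against R7-I and by -0.13 and -0.41 against R7-III. The kinase gene Pim2 (519, 515 and 594 TPM) did not pass, except against R7-III when R7-II replicate 2 was left out (-0.33, adjusted p = 0.00228). After quantile normalization the difference from R7-III was -0.04 for Myc (adjusted p = 0.446) and 0.40 for Socs2 (adjusted p = 0.0370), and median-of-ratios scaling also ended the Socs2 call (0.0107). The Myc call was also lost with no filter, no trend, the replicate number as a block or only the clones compared. Both calls were lost without R7-II replicate 1 or 2 or R7-III replicate 1, that of Myc also without R7-III replicate 2 and that of Socs2 also without R7-III replicate 3 (adjusted p up to 0.0261 and 0.0141), and Ccnd2 no longer passed in R7-II against R7-I when R7-I replicate 3 was left out (adjusted p = 0.0114).

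The 13 transcription factors known to act on receptor genes of this family, or on related programs, were all tested. In R7-II 6 were higher and 4 lower than in R7-I (40.6% and 15.5% of all genes). Against R7-III 5 were higher and 4 lower (35.6% and 18%), and 2 were lower in R7-III than in R7-I (8.41% in either direction). Under median-of-ratios scaling these became 4 and 4 (26% and 28.5% of all genes), 4 and 5 (25.6% and 27.8%), and 2 (8.39% in either direction). Ets1, an ETS factor, was at 113, 102 and 109 TPM in R7-I, 304, 249 and 289 in R7-II and 114, 122 and 115 in R7-III, which is higher in R7-II by 1.36 (adjusted p = 8.72e-08) and 1.25 (adjusted p = 1.60e-07). Foxp1 was also higher in R7-II (143, 178 and 149 TPM, by 0.31 and 0.25, and by 0.14 and 0.12 after median-of-ratios scaling). The part of these factors in the levels of the receptor genes was not tested. Tbx21, the gene of T-bet, was at 45.51, 47.10 and 44.21 TPM in R7-I, 3.38, 6.47 and 5.91 in R7-II and 54.34, 52.70 and 42.07 in R7-III, lower in R7-II by -2.94 (adjusted p = 2.31e-07) and -3.05 (adjusted p = 2.01e-07). Nfkb1, a subunit of NF-kappa-B, differed in all 3 comparisons, with means of 730 ± 10.5, 564 ± 3.53 and 628 ± 4.79 TPM: -0.37 and -0.16 in R7-II against R7-I and R7-III, and -0.22 (adjusted p = 1.44e-04) in R7-III against R7-I. After quantile normalization its difference from R7-III was -0.06 and did not pass (adjusted p = 0.0715). The pathway plot shows each gene of these 3 lists.

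**Figure D4:**
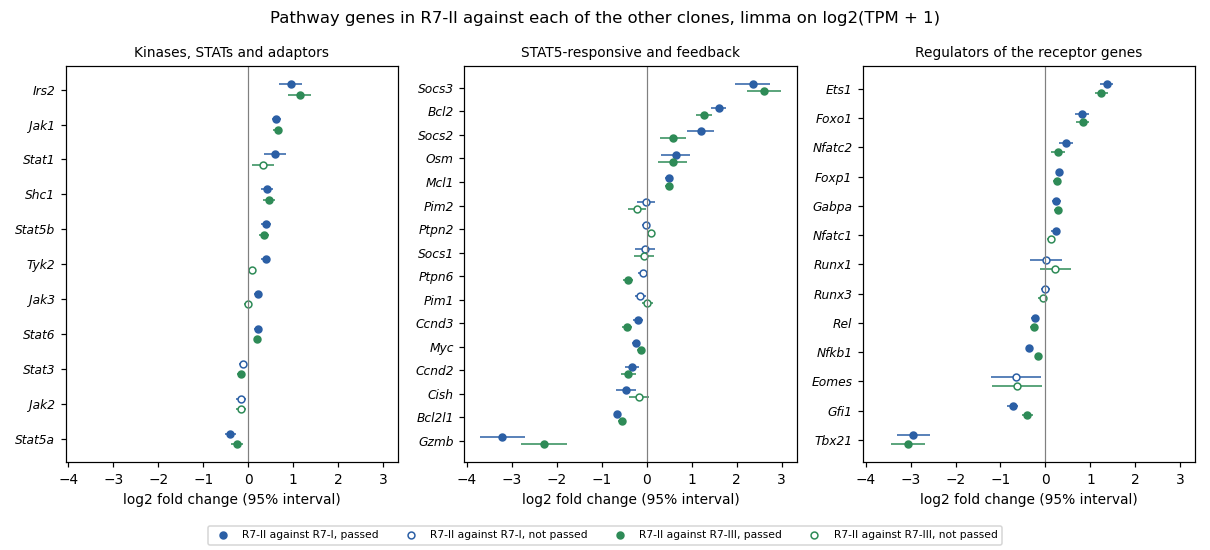
Log2 fold change with its 95% interval (horizontal axis, limma on log2(TPM + 1)) of R7-II against R7-I and against R7-III for the pathway genes tested, in 3 panels; filled symbols passed an adjusted p of 0.01. Each panel holds genes on both sides of 0, from Gzmb and Tbx21 lowest to Socs3, Bcl2 and Ets1 highest.

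For each member tested, the 11323 other genes were ranked by the Euclidean distance between their centred log2(TPM + 1) values over the 9 libraries, as a description. The nearest to Il2ra were Junb (distance 0.118, where the median of all genes was 1.04), Fam136a (0.145) and Mrpl53 (0.157). Junb, a subunit of AP-1, had means of 207, 146 and 194 TPM in R7-I, R7-II and R7-III. Nearest to Il15ra were Zbtb32 (0.270; median 1.85), with means of 250, 120 and 285 TPM, then Il12rb1, a chain of the IL-12 and IL-23 receptors, at 88.7, 40.8 and 90.7 TPM (0.336), and Atp10a (0.361). Il2rg was nearest to Nek9 (0.0631; median 0.570), Map3k11 and Mapk14. The nearest to Il7r, Ddc (0.666), Kcnc1 and Ager, were themselves low genes (means at or below 5.54 TPM) and much farther from it than the neighbours of the other members. Il4ra was nearest to Ndst1 (0.0856), Ptpn1 and Prps2, Il2rb to Ost4 (0.103), Cox6a1 and Thap11, and Il21r to Zmiz2 (0.104), Ipo13 and Rhog.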

How the data were processed

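PolyA RNA of sorted, peptide-activated CD8 T cells was sequenced by the study in 9 libraries, 3 per clone. The authors estimated gene levels with RSEM 1.2.11 on RefSeq genes of mm10, per the labels and methods, and deposited TPM values per gene symbol, rounded to 2 decimals (the sources used here do not name the aligner). TPM keeps no depth, so no counting error could be given. Between 13738 and 14434 genes were above 0 TPM in a library. The authors tested read counts with DESeq2 1.8.1, and those counts were not used here.

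Here, log2(TPM + 1) of the 11330 genes with a maximum TPM above 1 was fitted for all 9 libraries together with limma 3.58.1 (R 4.3.3; lmFit, contrasts.fit and eBayes with trend), two-sided, with Benjamini-Hochberg adjustment over all genes and a threshold of 0.01. Log2 fold changes, SE and 95% intervals are from this fit. The fit was also run on simulated data with independent noise and few changed genes, as many up as down. That run does not bear on how these libraries should be scaled. Chain ratios used TPM + 0.1. The family and the gene lists were chosen with earlier results of these data known. Besides the members, the genes named were, of each pathway list, the 3 most abundant and those called with a change over 2-fold; of each marker list, the 2 most abundant; and for each member the 3 nearest genes. Jak3, Mcl1, Bcl2l1 and the other markers named (the remaining CD8 T cell genes, Klra4, Klra8, Cd14, Cd4 and Foxp3) were added after their values were seen. Alternatives were another pseudocount, filter, scaling, moderation, threshold or choice of clones, a replicate block, and each library left out.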

Additional observations from a re-analysis of the deposited data

How the results depend on the processing

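Leaving out each library in turn gave 5416 to 6353 genes called between R7-II and R7-I, 5106 to 6105 between R7-II and R7-III and 422 to 1076 between R7-III and R7-I, with 4 to 5, 4 to 5 and 0 members. The last count fell whichever library of R7-I or R7-III was left out, which leaves fewer libraries in a compared clone. It was 422, 574 and 619 genes without R7-I replicate 1, 2 or 3, and 487, 462 and 523 without R7-III replicate 1, 2 or 3, against 953 with all. At an adjusted p of 0.05, 2142 genes and 1 member, Il2rb, were called between R7-III and R7-I. Quantile normalization left 3 members called between R7-II and R7-I.

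Of the fold changes of members under the alternatives, 409 kept their direction and side of the threshold, 18 lost the call, 6 gained it and 8 changed sign. Median-of-ratios scaling gave -0.11 for Il2rb in R7-II against R7-I, and -0.023 for Il21r and -0.045 for Stat6 in R7-III against R7-I, with and without the replicate block. Quantile normalization gave -0.0053 and -0.016 for the last pair and 0.071 for Pim2 in R7-II against R7-I. With each library left out, the difference of R7-II from R7-I ran from -0.10 to 0.016 for Il21r, -0.12 to 0.033 for Crlf2 and -0.14 to 0.092 for Pim2, and that of R7-III from R7-I from -0.042 to 0.077 for Il21r, -0.0062 to 0.15 for Il15ra and -3.4e-04 to 0.011 for Stat6. None of the values that changed sign passed the threshold, and the cause was not tested.

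Libraries with the same replicate number hardly deviated together (correlations of -0.0449 to 0.0888 over 9 pairs, median 0.0253). The 18 other pairs of libraries from different clones had correlations of -0.0948 to 0.0649 (median -0.00925). The labels do not say whether the same number means a shared batch, and these correlations cannot settle it. With the replicate number as a block, 6015, 5786 and 733 genes and 5, 4 and 0 members were called, and Il4ra against R7-III was the member lost (adjusted p = 0.0125). With median-of-ratios scaling and the block together, chosen after seeing the data, 619 genes were called between R7-III and R7-I. Depth is not known from TPM, so the counting error of low genes such as Il7r and Il9r is not known either.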
